A study of Homo sapiens with 90 samples.

Results

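The response of HepG2 cells to a pair of azole fungicides at 10 µM was set against their response to 2,4-D at the same dose. HepG2 is an established human liver tumour line. The members are the 9 columns labelled Fenbuconazole 10uM, Imazalil 10uM and 2,4-D 10uM, of 90 columns in the series, 6 with an azole and 3 with 2,4-D. The rule names compounds and a dose and uses no measured value, and it was written with earlier results of these data known. All groups had 24 h of exposure in 0.2% DMSO, begun 24 h after plating. The control cells received DMSO alone, and each group held 3 arrays. Fenbuconazole carries a triazole ring and imazalil an imidazole ring, and they differ outside the ring as well. The herbicide 2,4-D is a chlorinated phenoxyacetic acid with no azole ring. The series gave each compound at 9 doses from 0.001 to 10 µM, and the 90 columns come from 84 different arrays, because the 3 common DMSO arrays were normalized once with each compound's set. Nothing in the labels says whether the 3 arrays of a group came from separate cultures, so p-values measure only the spread between these arrays. A single tumour line models hepatocytes only in part, and differences between cell number and RNA per cell cannot be told apart in bulk RNA.

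Azole fungicides block the fungal sterol 14-demethylase through the nitrogen of the azole ring, which binds the iron of the haem. The human counterpart of that enzyme is CYP51A1, a step of cholesterol synthesis, and other cytochrome P450 enzymes bind azoles as well. In liver cells, drug-like compounds are sensed by receptors that switch on their metabolism. The aryl hydrocarbon receptor (AHR) induces CYP1A1, and the receptors PXR and CAR induce enzymes of the CYP3A and CYP2B families. When sterols run low, the factor SREBP2 raises the genes of cholesterol synthesis. The comparison asks which genes the azoles moved in common at this dose and 2,4-D did not.

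Each value below is a log2 intensity minus the mean of the 3 DMSO columns of the same set, unless it is called a level. A difference is given as log2 ± SE from limma, fitted across 19774 genes with 1 probe set per gene, and "passed" means a Benjamini-Hochberg adjusted p under 0.05. The 9 arrays and their DMSO controls had medians between 2.95 and 3.15 and interquartile ranges between 2.92 and 3.16 (log2), and replicates correlated at r = 0.9957 to 0.9977 across genes. The interquartile range was 2.96 ± 0.06 with fenbuconazole, 3.06 ± 0.02 with imazalil and 3.06 ± 0.08 with 2,4-D, against 3.01 ± 0.08, 3.01 ± 0.09 and 3.08 ± 0.08 for DMSO in the same sets (mean ± SD, n = 3). For ACTB, the 3′ control probe set exceeded the 5′ one by 0.32 ± 0.12, 0.46 ± 0.07 and 0.43 ± 0.10 with fenbuconazole, imazalil and 2,4-D, against 0.40 ± 0.14, 0.43 ± 0.12 and 0.41 ± 0.13 for DMSO. The part of these array properties in the gene results was not tested beyond a fit with the range as a covariate. Of the marker lists, all 12 hepatocyte markers had levels above 9.91 on every array, and among blood and endothelial markers 1 of 9 (LYZ) had a mean level over 4. Of 8 mesenchymal markers 2 did, the higher being ACTA2 at 8.09, whose 6 azole arrays all lay below the 3 arrays with 2,4-D (azole mean minus 2,4-D -0.24, adjusted p = 0.309). The number of arrays limits the precision.

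The azole mean differed from 2,4-D at 10 µM for 35 of 19774 genes (0.177%). Of these, 18 were higher with the azoles (0.091% of genes) and 17 lower (0.086%). Sizes ran from 0.20 to 2.30 on the log2 scale. An unadjusted p under 0.05 in limma was found for 1275 genes, fewer than the 1859 at 0.1 µM, where no gene passed. All 35 had the same sign in both azoles, but the mean alone does not make a response shared, since 1 azole can carry it. For 28 of the 35, all 6 azole arrays lay on one side of the 3 arrays with 2,4-D. Over all 19774 genes, all 6 lay above the 3 in 1.34% and below in 1.46%, and 9746 genes had a higher azole mean. The exceptions among the 35 were MCC, MVD, CYP24A1, ACSS2, ALAS1, ARID5B and FILIP1L, where 1 or more arrays overlapped. The same contrast called 1 gene in a fit of the 9 arrays alone, 13 with the 3 lowest doses in place of DMSO as the baseline and 116 with each array's interquartile range as a covariate. Another probe set was measured for 15 of the 35 genes. All 13 other probe sets with a mean level over 4 had the same sign, and a dim one had the opposite sign in ARID5B, ASNS, CARD16, FILIP1L and ZAP70. Among the 13, only probe sets of TXNIP, DHCR7 and SLC2A3 passed for the azole mean when every probe set was tested. That of NKD1 gave only -0.02. The count fell to 21, 21 and 13 without 2,4-D replicate 1, 2 or 3, and 9 of the 35 genes passed in every one of the 9 fits that left out 1 array: CYP1A1, SLC51B, LRP8, HES6, LSS, SERPINA7, SGK1, DKK1 and TXNIP. Fits that left out all arrays of 1 replicate number were harder on them. LRP8, HES6 and SERPINA7 lost their calls without replicate 1 or 2, SGK1 without replicate 3 and LSS without any 1 of the 3. LRP8 and LSS also lost theirs with the median over probe sets.

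**Figure D1:**
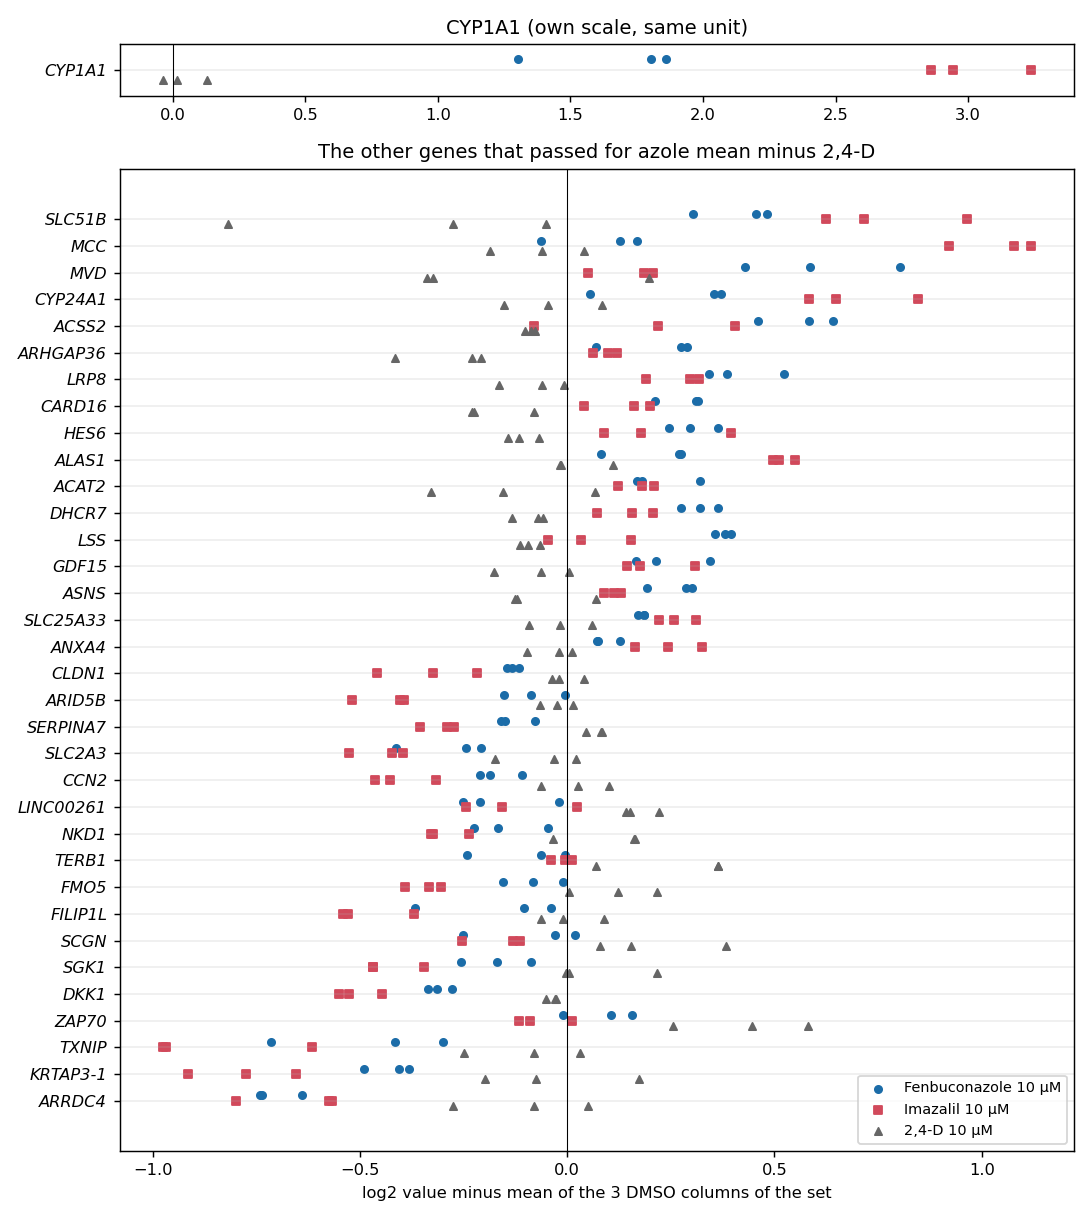
Values of the 35 genes that differed between the azole mean and 2,4-D, each point 1 array at 10 µM, as log2 minus the mean of the 3 DMSO columns of its set (x axis), with genes in rows ordered by the difference and CYP1A1 on a scale of its own. The azole points (circles and squares) lie to one side of the 2,4-D points (triangles) for 28 genes, and for ZAP70 and TERB1 it is the 2,4-D points that lie away from 0.

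Each azole was also compared with 2,4-D on its own, as pairs of compounds at the matched dose, with p-values adjusted over all genes and the 3 pairs together. Fenbuconazole differed from 2,4-D for 20 genes (0.101%) and imazalil for 36 (0.182%). Only 4 genes (0.0202%) passed in both pairs in the same direction, and 8 with the replicate number as a block. CYP1A1, SLC51B and HES6 were higher with both azoles and DKK1 lower. When every probe set was tested, HES6 no longer passed in the imazalil pair (adjusted p = 0.0739). In that setting another probe set of TXNIP passed in both pairs. These pairs share the 3 arrays of 2,4-D and the 3 DMSO arrays, so that overlap is a count and not independent evidence. Of the other genes among the 35, 9 passed in the fenbuconazole pair alone, 17 in the imazalil pair alone and 5 in neither.

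CYP1A1 (Entrez gene 1543), a cytochrome P450 that oxidises polycyclic aromatic compounds and the best known target of AHR, had the largest difference. Its values were 1.30, 1.80 and 1.86 on the 3 fenbuconazole arrays, 2.86, 2.94 and 3.24 on the 3 imazalil arrays and -0.04, 0.13 and 0.01 on the 3 arrays with 2,4-D. The groups did not overlap, and every imazalil array lay above every fenbuconazole array. The azole mean exceeded 2,4-D by 2.30 ± 0.17, or 4.92-fold (95% interval 3.91 to 6.19, adjusted p = 5.05e-16). Fenbuconazole alone exceeded 2,4-D by 1.62 ± 0.19 (adjusted p = 1.65e-07) and imazalil by 2.98 ± 0.19 (adjusted p = 6.85e-18). The difference between the azoles was itself past the threshold, with imazalil higher by 2.57-fold (log2 of fenbuconazole minus imazalil -1.36 ± 0.19, adjusted p = 1.01e-05). With 2,4-D the level stayed near that of DMSO, at 4.63 ± 0.08 against 4.60 ± 0.36 (mean ± SD, n = 3), a difference of 0.04 with a 95% interval of -0.21 to 0.28.

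CYP1A1 was the only one of 12 measured members of the AHR list to pass, and the list's median of azole mean minus 2,4-D was 0.05, beside -0.0018 over all 19774 genes. Higher calls over all genes numbered 18. CYP1A2, the other CYP1A enzyme, differed by 0.07 (95% interval -0.14 to 0.27), and its probe set was dim, with a mean level of 3.88. CYP1B1 gave 0.17 (-0.04 to 0.38), and the AHR repressor gene AHRR -0.01 (-0.19 to 0.17), both with mean levels under 3. TIPARP, an AHR-induced ADP-ribosyltransferase whose probe set was not dim (mean level 6.78), gave 0.05 (-0.07 to 0.17), and the quinone reductase gene NQO1, at a mean level of 11.70, gave 0.06 (-0.02 to 0.14).

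SLC51B (Entrez gene 123264) encodes a subunit of the exporter that carries bile acids and steroids out of cells, and is induced by the bile acid receptor FXR. Its values were 0.48, 0.46 and 0.30 with fenbuconazole, 0.62, 0.96 and 0.72 with imazalil and -0.28, -0.05 and -0.82 with 2,4-D. All azole arrays lay above DMSO and all arrays with 2,4-D below it, with 1 of the latter far below the others. The azole mean exceeded 2,4-D by 0.97 ± 0.13, 1.96-fold (95% interval 1.63 to 2.36, adjusted p = 4.78e-06). Part of that difference lies in 2,4-D, whose own difference from DMSO was -0.38 (95% interval -0.69 to -0.07, not past the threshold). Without the lowest array, 2,4-D replicate 3, the difference was 0.75 and still passed (adjusted p = 0.00734).

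HES6, a transcription regulator of the HES family, was higher with both azoles by a smaller amount. Its values were 0.36, 0.30 and 0.25 with fenbuconazole, 0.09, 0.40 and 0.18 with imazalil and -0.07, -0.14 and -0.12 with 2,4-D. The azole mean exceeded 2,4-D by 0.37 ± 0.07 (adjusted p = 0.0012), and neither azole passed against DMSO, at 0.30 (adjusted p = 0.347) and 0.22 (adjusted p = 0.738).

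DKK1 (Entrez gene 22943), a secreted inhibitor of Wnt signalling that is itself a Wnt target, was lower with both. Its values were -0.32, -0.34 and -0.28 with fenbuconazole, -0.55, -0.45 and -0.53 with imazalil and -0.03, -0.03 and -0.05 with 2,4-D. The 3 groups did not overlap, and the 2,4-D arrays lay within 0.052 of the DMSO mean. The azole mean minus 2,4-D was -0.37 ± 0.05, or 0.773 of the 2,4-D level (95% interval 0.726 to 0.822, adjusted p = 1.85e-07). It passed in 21 of 22 alternative settings, as did SLC51B and TXNIP, and CYP1A1 in all 22.

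The promoter windows of the 4 genes past in both pairs are printed next, with that of CCN2, a further member of the Wnt and YAP list that was lower with the azoles. They are the 250 bases before the annotated start, 5′ to 3′ on the gene's strand, from RefSeq on GRCh38.p14. Capitals mark, on either strand, GCGTG (the core bound by AHR with its partner ARNT), CTTTGAA (a core bound by TCF and LEF, which carry Wnt signals) and GGAATG (a core bound by TEAD, the DNA-binding partner of YAP).
CYP1A1, chr15:74725529-74725778, minus strand: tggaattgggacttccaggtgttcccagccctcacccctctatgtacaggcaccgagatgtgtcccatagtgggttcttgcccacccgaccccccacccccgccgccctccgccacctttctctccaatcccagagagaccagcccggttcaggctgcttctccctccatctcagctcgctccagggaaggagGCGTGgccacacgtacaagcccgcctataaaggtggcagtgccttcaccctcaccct
SLC51B, chr15:65045137-65045386, plus strand: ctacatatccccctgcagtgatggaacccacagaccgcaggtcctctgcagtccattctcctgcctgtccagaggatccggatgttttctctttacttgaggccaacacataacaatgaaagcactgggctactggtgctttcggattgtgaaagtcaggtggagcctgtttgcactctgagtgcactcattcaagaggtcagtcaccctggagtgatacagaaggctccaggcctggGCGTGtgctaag
HES6, chr2:238240039-238240288, minus strand: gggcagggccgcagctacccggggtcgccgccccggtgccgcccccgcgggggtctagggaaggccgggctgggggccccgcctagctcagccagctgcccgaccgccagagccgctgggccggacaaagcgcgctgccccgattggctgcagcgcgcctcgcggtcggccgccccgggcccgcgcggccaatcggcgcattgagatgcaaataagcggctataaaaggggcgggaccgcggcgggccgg
DKK1, chr10:52314031-52314280, plus strand: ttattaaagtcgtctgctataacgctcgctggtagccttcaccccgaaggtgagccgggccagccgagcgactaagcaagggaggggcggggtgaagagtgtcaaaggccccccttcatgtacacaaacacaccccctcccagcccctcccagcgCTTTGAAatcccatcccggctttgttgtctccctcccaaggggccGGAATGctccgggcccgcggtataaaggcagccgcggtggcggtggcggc
CCN2, chr6:131951373-131951622, minus strand: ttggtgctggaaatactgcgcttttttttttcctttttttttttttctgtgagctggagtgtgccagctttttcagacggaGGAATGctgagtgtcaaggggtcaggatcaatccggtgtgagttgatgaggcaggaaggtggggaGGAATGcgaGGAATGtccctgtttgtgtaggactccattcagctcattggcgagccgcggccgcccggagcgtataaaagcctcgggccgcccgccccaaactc

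The windows of CYP1A1 and SLC51B each hold 1 GCGTG, 57 and 12 bases before the start. That of DKK1 holds 1 CTTTGAA at 95 and 1 GGAATG at 50 bases before the start. That of CCN2 holds 3 copies of GGAATG, at 169, 104 and 95 bases, and that of HES6 has none of these letters. Over the first listed window of 27305 genes, 31.9% held GCGTG, 3.88% CTTTGAA and 11.9% GGAATG. Of the 30 genes among the 35 with a window, 13, 3 and 6 held them. GCGTG thus occurs in many promoters, and a match is a run of letters and not a measured site.

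All 13 measured members of the Wnt and YAP list had a lower azole mean than 2,4-D, against 10028 of 19774 genes. The list's median was -0.14, beside -0.0018 over all genes. Against DMSO its median was -0.15 with fenbuconazole, -0.20 with imazalil and -0.01 with 2,4-D, where the medians over all genes were -0.00089, -0.0043 and 0.00077. DKK1, CCN2 and NKD1 passed over all genes (3 of 13), and the other members did not, against 17 lower calls among 19774 genes. This list, like the others, was chosen with earlier results of these data known, so its counts are descriptive and not independent evidence.

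CCN2, a matrix-associated protein that is a standard YAP target, had values of -0.21, -0.11 and -0.19 with fenbuconazole, -0.46, -0.32 and -0.43 with imazalil and 0.03, 0.10 and -0.06 with 2,4-D. Its difference was -0.31 ± 0.06 (adjusted p = 0.00682), with -0.42 ± 0.07 for imazalil (past) and -0.19 ± 0.07 for fenbuconazole (not past). Fenbuconazole minus imazalil was 0.23 (95% interval 0.09 to 0.38), and the call was lost without 2,4-D replicate 1 or 2 (adjusted p = 0.0645 and 0.15). NKD1, an inhibitor of Wnt signalling that Wnt induces, had values of -0.22, -0.17 and -0.05 with fenbuconazole, -0.33, -0.32 and -0.24 with imazalil and -0.03, 0.16 and 0.16 with 2,4-D. It differed by -0.32 ± 0.06 (adjusted p = 0.00682, and 0.134 and 0.148 without 2,4-D replicate 2 or 3). A second NKD1 probe set, with a mean level of 6.45, gave -0.02. Among members that did not pass, CCN1 gave -0.24, the stem cell receptor gene LGR5 -0.17, SP5 -0.14 and the Wnt feedback gene AXIN2 -0.05. SP5 was 1 of 4 members with all 6 azole arrays below the 3 arrays with 2,4-D, the others being DKK1, CCN2 and NKD1. Over all 19774 genes this held for 1.46%.

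**Figure D2:**
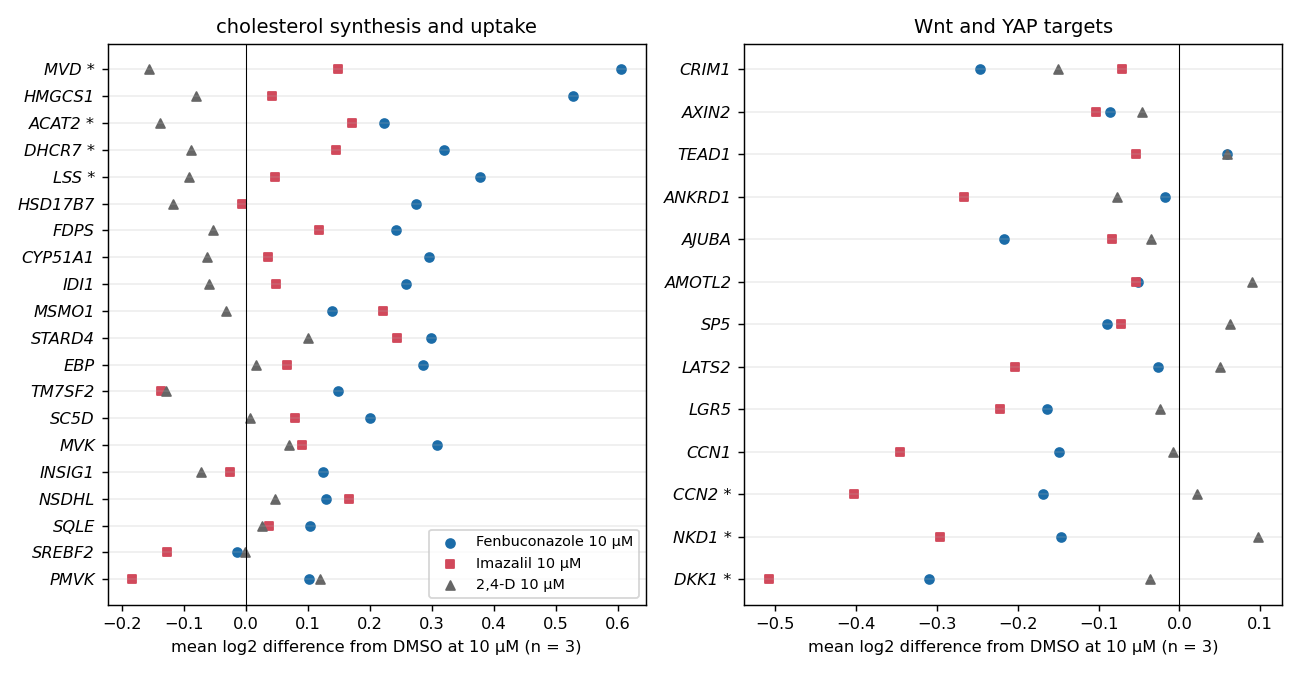
Mean log2 difference from DMSO at 10 µM (x axis, n = 3 arrays) for the measured members of the lists "cholesterol synthesis and uptake" (left, 20 genes) and "Wnt and YAP targets" (right, 13 genes), ordered by azole mean minus 2,4-D. An asterisk marks the 4 and 3 members that passed for that contrast, and the fenbuconazole points (circles) reach farthest on the left panel and the imazalil points (squares) on the right.

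TXNIP and ARRDC4 had a lower azole mean. On the probe set used for each gene, TXNIP passed with imazalil alone and ARRDC4 with fenbuconazole alone. They encode alpha-arrestins that limit glucose uptake, and the glucose-sensing factors MondoA and ChREBP drive them. TXNIP had values of -0.71, -0.30 and -0.42 with fenbuconazole, -0.98, -0.62 and -0.97 with imazalil and -0.25, 0.03 and -0.08 with 2,4-D, so that each azole array lay below each array with 2,4-D. The azole mean minus 2,4-D was -0.57 ± 0.08, 0.676 of the 2,4-D level (95% interval 0.605 to 0.755, adjusted p = 1.03e-05). Imazalil passed on its own (-0.75 ± 0.09, adjusted p = 3.03e-07), and fenbuconazole did not (-0.38 ± 0.09, adjusted p = 0.0797). The other 2 TXNIP probe sets gave -0.60 and -0.56 for the azole mean. When every probe set was tested, the former passed with both azoles against 2,4-D. It gave -0.39 with fenbuconazole (adjusted p = 0.0122) and -0.80 with imazalil (adjusted p = 4.5e-10). The latter passed with imazalil alone (fenbuconazole -0.32, adjusted p = 0.279), so the fenbuconazole call of TXNIP depends on the probe set.

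ARRDC4 had values of -0.64, -0.74 and -0.74 with fenbuconazole, -0.57, -0.57 and -0.80 with imazalil and -0.08, -0.28 and 0.05 with 2,4-D. Its azole arrays also lay below those with 2,4-D, and the azoles were close to each other (fenbuconazole minus imazalil -0.06, 95% interval -0.33 to 0.21). The difference of -0.57 ± 0.12 passed (adjusted p = 0.00682) but not without 2,4-D replicate 1 or 3 (adjusted p = 0.0749 and 0.195). The other 10 measured genes of the glucose-sensing list did not pass. The list thus held 2 lower calls among 12 measured genes, against 17 among 19774. The liver pyruvate kinase gene PKLR gave 0.01, the fructokinase gene KHK -0.04 and the hepatokine gene FGF21 -0.05, and the list's median was -0.02.

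Of 20 measured genes of cholesterol synthesis and uptake, 18 had a higher azole mean than 2,4-D, 12 had an unadjusted p under 0.05 on that side, and 4 passed over all genes: MVD, ACAT2, DHCR7 and LSS. Over all 19774 genes these counts were 9746, 598 and 18. The list's median was 0.19, against -0.0018 over all genes. Fenbuconazole minus 2,4-D had a median of 0.27 and imazalil minus 2,4-D one of 0.11. The medians against DMSO were 0.25, 0.06 and, with 2,4-D, -0.06.

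LSS, the enzyme that closes squalene epoxide into lanosterol, had values of 0.36, 0.40 and 0.38 with fenbuconazole, 0.15, 0.03 and -0.05 with imazalil and -0.11, -0.10 and -0.07 with 2,4-D. The fenbuconazole arrays stood apart and the imazalil arrays lay just above those with 2,4-D. The azole mean differed by 0.30 ± 0.06 (adjusted p = 0.00183), and fenbuconazole exceeded imazalil by 0.33 ± 0.06 (adjusted p = 0.0061). DHCR7, the last enzyme of one branch of the pathway, had values of 0.27, 0.36 and 0.32 with fenbuconazole, 0.16, 0.21 and 0.07 with imazalil and -0.07, -0.06 and -0.13 with 2,4-D. It differed by 0.32 ± 0.06 (adjusted p = 0.00208, and 0.0726 without 2,4-D replicate 3), and its second probe set gave 0.35.

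MVD, which makes isopentenyl diphosphate, had the largest value in the list, with 0.58, 0.80 and 0.43 on the fenbuconazole arrays, 0.21, 0.19 and 0.05 on the imazalil arrays and -0.32, 0.20 and -0.34 on the arrays with 2,4-D. One array with 2,4-D lay among the imazalil arrays. The difference of 0.53 ± 0.12 passed (adjusted p = 0.0195) but not without fenbuconazole replicate 2 (adjusted p = 0.0804), imazalil replicate 1 (0.0524) or 2,4-D replicate 1 or 3 (0.258 and 0.386). ACAT2, a cytosolic thiolase at the start of the pathway, differed by 0.34 ± 0.08 (adjusted p = 0.0452), with azole values from 0.12 to 0.32 and 2,4-D values from -0.33 to 0.07. It lost its call in 8 of the 9 fits that left out 1 array, the exception being the fit without 2,4-D replicate 1. LRP8, a lipoprotein receptor that is not on the list, had values of 0.52, 0.39 and 0.34 with fenbuconazole, 0.30, 0.32 and 0.19 with imazalil and -0.06, -0.16 and -0.01 with 2,4-D. It differed by 0.42 ± 0.07 (adjusted p = 0.000365).

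CYP51A1, the human counterpart of the fungal target, did not pass. Its values were 0.29, 0.44 and 0.15 with fenbuconazole, 0.02, 0.08 and 0.01 with imazalil and -0.03, 0.00088 and -0.15 with 2,4-D, and the difference of 0.23 ± 0.07 had an adjusted p of 0.315. Fenbuconazole minus 2,4-D alone did pass (0.36 ± 0.08, adjusted p = 0.044), as it did for HMGCS1, an early enzyme of the sterol pathway (0.61 ± 0.11, adjusted p = 0.00221). HMGCS1 also differed between the azoles, with fenbuconazole higher by 0.49 ± 0.11 (adjusted p = 0.0432). Second probe sets did not give that order of the azoles. For HMGCS1 the second probe set, about as bright, gave 0.36 with fenbuconazole and 0.39 with imazalil against 2,4-D. For CYP51A1 it gave 0.15 and 0.44, and the fenbuconazole call was lost when every probe set was tested (adjusted p = 0.0726). INSIG1, a sterol-sensing brake on the pathway, gave 0.12 (95% interval -0.11 to 0.35) from a dim probe set.

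In the list of fatty acid and triglyceride synthesis, 1 of 17 measured members passed and 14 had a higher azole mean, against 18 past on that side and 9746 higher of all 19774 genes. The member was ACSS2, which makes acetyl-CoA from acetate, with 0.64, 0.46 and 0.58 on the fenbuconazole arrays, 0.22, 0.41 and -0.08 on the imazalil arrays and -0.10, -0.09 and -0.08 on the arrays with 2,4-D. The fenbuconazole arrays lay above all the others, and 1 imazalil array lay level with 2,4-D. The difference was 0.46 ± 0.09 (adjusted p = 0.00682), and it was lost without any 1 of the 3 arrays with 2,4-D (adjusted p = 0.0711, 0.0597 and 0.0726). The list's median was 0.15, beside -0.0018 over all genes. LPIN1, a phosphatidate phosphatase, gave 0.38 ± 0.11 (adjusted p = 0.213), PNPLA3 0.34 (adjusted p = 0.309) and fatty acid synthase, FASN, 0.23 (adjusted p = 0.582).

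ALAS1, the first and rate-limiting enzyme of haem synthesis in liver, was higher with the azoles and passed with imazalil alone among the pairs. Its values were 0.28, 0.27 and 0.08 with fenbuconazole, 0.50, 0.55 and 0.51 with imazalil and -0.02, 0.11 and -0.02 with 2,4-D. The azole mean differed by 0.34 ± 0.07 (adjusted p = 0.00682, and 0.109 and 0.132 without 2,4-D replicate 1 or 3). It was the only member to pass of 11 measured in the haem list and of 12 in the list of PXR and CAR targets, where the list's median was 0.05. Of these 12, 10 had a higher azole mean and 3 an unadjusted p under 0.05 on that side. Over all 19774 genes these counts were 9746 and 598, and 18 passed on that side. GSTA1, on the PXR and CAR list, gave 0.37 (adjusted p = 0.302), with 0.24 for fenbuconazole and 0.60 for imazalil against DMSO. CYP3A4, the main drug-metabolising P450 of liver and a PXR target, gave 0.05 (95% interval -0.13 to 0.22), CYP2B6, a CAR target, -0.10 (-0.38 to 0.18), and CYP3A7, the fetal form, 0.18 (-0.06 to 0.42). Mean levels of these 3 probe sets were 3.83, 2.88 and 4.20, low on this array. On the CYP3A7 probe set used, 2,4-D itself lay 0.25 above DMSO. Other CYP3A7 probe sets, with mean levels of 3.87 and 3.41, gave 0.35 and -0.28 for the azole mean minus 2,4-D. The sulfotransferase gene SULT2A1 gave 0.21 (0.03 to 0.38), with 0.47 for imazalil against DMSO (adjusted p = 0.0256) and 0.14 for 2,4-D. A second SULT2A1 probe set, with a mean level of 6.58, gave 0.05 for the azole mean minus 2,4-D. HMOX1, which breaks haem down, gave -0.02 (-0.14 to 0.09).

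CYP24A1, which inactivates vitamin D and is induced by the vitamin D receptor, had values of 0.36, 0.05 and 0.37 with fenbuconazole, 0.58, 0.65 and 0.85 with imazalil and -0.05, -0.15 and 0.08 with 2,4-D. It differed by 0.52 ± 0.11 (adjusted p = 0.0211), lost in 6 of the 9 fits that left out 1 array, 2,4-D replicate 2 giving the highest adjusted p (0.267). FMO5, an oxygenase of the flavin family, was lower, with -0.15, -0.01 and -0.08 on the fenbuconazole arrays, -0.33, -0.30 and -0.39 on the imazalil arrays and 0.22, 0.12 and 0.0045 on the arrays with 2,4-D. Its difference was -0.33 ± 0.06 (adjusted p = 0.00136, and 0.0823 without 2,4-D replicate 1), and 1 of 16 measured genes of steroid and vitamin D metabolism passed, CYP24A1. Over all 19774 genes, 18 passed as higher with the azoles.

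SGK1, a kinase induced by glucocorticoids, was lower with the azoles and passed without any 1 of the 9 arrays. Its values were -0.09, -0.26 and -0.17 with fenbuconazole, -0.35, -0.47 and -0.47 with imazalil and 0.0041, -0.0037 and 0.22 with 2,4-D. The difference was -0.37 ± 0.05 (adjusted p = 1.08e-05), with imazalil past on its own (-0.50 ± 0.06) and fenbuconazole not (-0.24 ± 0.06, adjusted p = 0.0916). It was 1 of 13 measured genes of the FOXO and insulin list to pass, and 4 of the 13 had a higher azole mean. Over all 19774 genes, 17 passed as lower and 9746 had a higher azole mean. SLC2A3, the glucose transporter GLUT3, had values of -0.24, -0.41 and -0.21 with fenbuconazole, -0.53, -0.40 and -0.42 with imazalil and -0.03, -0.17 and 0.02 with 2,4-D. It differed by -0.31 ± 0.06 (adjusted p = 0.00895). The call was lost without fenbuconazole replicate 2 or 2,4-D replicate 1 or 3 (adjusted p = 0.0503, 0.11 and 0.225). Among the pairs, SLC2A3 passed with imazalil alone. Another SLC2A3 probe set, about as bright, gave -0.08 with fenbuconazole and -0.42 with imazalil against 2,4-D. When every probe set was tested, it passed with imazalil alone (adjusted p = 3.97e-05, and 0.779 with fenbuconazole). A less bright SLC2A3 probe set (mean level 8.32) gave -0.24 and -0.32 and passed in neither pair. The fenbuconazole difference thus depends on the probe set. SLC2A3 was 1 of 16 in the hypoxia and glycolysis list to pass, where 5 had a higher azole mean. These counts stand beside the same 17 lower calls and 9746 higher means among 19774 genes.

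SERPINA7, the thyroxine-binding globulin that liver secretes, had values of -0.16, -0.15 and -0.08 with fenbuconazole, -0.27, -0.29 and -0.36 with imazalil and 0.04, 0.08 and 0.08 with 2,4-D. The groups did not overlap, and the difference of -0.29 ± 0.05 passed (adjusted p = 0.000365). None of the 12 hepatocyte markers passed, and their median was 0.02. KRTAP3-1, named for a hair keratin-associated protein, gave -0.57 ± 0.11 (adjusted p = 0.00682, and 0.249 without 2,4-D replicate 3), with values of -0.38, -0.41 and -0.49 with fenbuconazole, -0.78, -0.66 and -0.92 with imazalil and -0.20, -0.07 and 0.17 with 2,4-D. The tight junction gene CLDN1 gave -0.23 ± 0.05 (adjusted p = 0.00974), with azole values from -0.46 to -0.12 and 2,4-D values from -0.04 to 0.04. The call was lost without imazalil replicate 3 or 2,4-D replicate 1 or 3 (adjusted p = 0.0711, 0.0635 and 0.189).

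ASNS and GDF15 had a higher azole mean, and both are known to be induced by the integrated stress response. ASNS, asparagine synthetase, differed by 0.24 ± 0.06 (adjusted p = 0.0382), with azole values from 0.09 to 0.30 and 2,4-D values from -0.13 to 0.07. GDF15, a secreted stress hormone, differed by 0.30 ± 0.07 (adjusted p = 0.038), with 0.14 to 0.34 against -0.18 to 0.0044. These calls were lost in 7 and 6 of the 9 fits that left out 1 array (highest adjusted p 0.42 without 2,4-D replicate 3 and 0.32 without 2,4-D replicate 1). ASNS was 1 of 18 members of the integrated stress and ER stress list to pass, with ATF4 at 0.06, DDIT3 at 0.12 and the chaperone gene HSPA5 at -0.0032, and the median of the list was 0.05. Higher calls numbered 18 among all 19774 genes. The mitochondrial carrier gene SLC25A33 gave 0.24 ± 0.05 (adjusted p = 0.0149), with azole values from 0.17 to 0.31 and 2,4-D values from -0.09 to 0.06. It was lost without imazalil replicate 1 or 2,4-D replicate 2 or 3 (adjusted p = 0.0524, 0.108 and 0.316). The annexin gene ANXA4 gave 0.20 ± 0.05 (adjusted p = 0.0447), with azole values from 0.07 to 0.33 and 2,4-D values from -0.10 to 0.01, and was lost in 8 of the 9 such fits, up to 0.425 without 2,4-D replicate 2.

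For 6 of the 35 genes the 95% interval of 2,4-D minus DMSO, not adjusted for the number of genes, did not hold 0, and part or most of the difference lay in 2,4-D. Beside SLC51B these were ARHGAP36, LINC00261, SCGN, TERB1 and ZAP70. In the other genes, an interval that held 0 does not show that 2,4-D had no part. With 2,4-D, MVD lay at -0.16 and ACAT2 at -0.14 against DMSO. ZAP70, a T-cell kinase gene, had values of -0.01, 0.11 and 0.16 with fenbuconazole, -0.09, -0.12 and 0.01 with imazalil and 0.25, 0.58 and 0.45 with 2,4-D, so that the azoles stayed near DMSO and 2,4-D lay above it by 0.43 (95% interval 0.22 to 0.63). A second ZAP70 probe set, as dim as the first, gave 0.23 for the azole mean minus 2,4-D, the opposite sign to -0.42. TERB1, a telomere protein of meiosis, gave 0.27 for 2,4-D against DMSO (0.08 to 0.45), -0.10 for fenbuconazole and -0.01 for imazalil. LINC00261, a long noncoding RNA of endoderm, lay at 0.17 (0.02 to 0.33) with 2,4-D and at -0.16 and -0.13 with the azoles. SCGN, a calcium-binding protein gene, lay at 0.21 (0.05 to 0.36), -0.09 and -0.17, and ARHGAP36 at -0.28 (-0.49 to -0.08), 0.21 and 0.09. Without single arrays the highest adjusted p was 0.446 for ZAP70, 0.484 for TERB1, 0.275 for LINC00261, 0.512 for SCGN and 0.103 for ARHGAP36, each without an array of 2,4-D. Mean levels were under 4 for 5 of the 35 genes, ARHGAP36, CARD16, MCC, TERB1 and ZAP70, where a probe set carries little signal. CARD16, a caspase-recruitment domain protein, had values of 0.31, 0.32 and 0.21 with fenbuconazole, 0.04, 0.16 and 0.20 with imazalil and -0.23, -0.23 and -0.08 with 2,4-D, a difference of 0.38 ± 0.08 (adjusted p = 0.0195) that was lost in 5 of the 9 fits that left out 1 array, up to 0.185 without 2,4-D replicate 2. Its second probe set gave -0.04.

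Direct comparison of the azoles found 18 genes that differed (0.091%), 12 higher with fenbuconazole and 6 higher with imazalil. Among the 35 genes these were CYP1A1, LSS, MCC and ARID5B. MCC, a negative regulator of cell cycle entry, rose with imazalil (0.92, 1.12 and 1.08) and had values of 0.17, 0.13 and -0.06 with fenbuconazole and 0.04, -0.19 and -0.06 with 2,4-D. Fenbuconazole minus imazalil was -0.96 ± 0.13 (adjusted p = 6.44e-06), and fenbuconazole minus 2,4-D 0.15 (95% interval -0.12 to 0.41), so its call for the azole mean (also lost without 2,4-D replicate 2, adjusted p = 0.0597) rests on imazalil. The second MCC probe set, as dim as the first, gave 0.06 for the azole mean. ARID5B, a chromatin regulator, was lower with imazalil, at -0.41 ± 0.06 against 2,4-D (adjusted p = 2.26e-05) and -0.06 with fenbuconazole (95% interval -0.18 to 0.06). FILIP1L gave -0.48 ± 0.09 with imazalil and -0.17 with fenbuconazole (-0.36 to 0.01). Calls of ARID5B and FILIP1L for the azole mean (adjusted p = 0.0236 and 0.0476) were lost in 5 and 7 of the 9 fits that left out 1 array.

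Fenbuconazole minus imazalil passed for only 4 of the 35 genes, and a missing call does not show that the azoles act alike. Among the genes without a call, the 95% interval, not adjusted for the number of genes, held 0 in some and excluded it in others. Fenbuconazole minus imazalil was 0.08 for HES6 (95% interval -0.07 to 0.23), 0.03 for GDF15 (-0.13 to 0.19), 0.05 for ACAT2 (-0.13 to 0.23) and -0.08 for SLC25A33 (-0.20 to 0.03). For SLC51B it was -0.35 (-0.66 to -0.05), for DKK1 0.20 (0.09 to 0.30), for TXNIP 0.38 (0.19 to 0.56) and for SGK1 0.26 (0.13 to 0.38), with imazalil farther from 2,4-D in each and no adjusted p under 0.05. In 13 of the 35 genes the smaller of the differences from 2,4-D was under 0.5 times the larger.

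**Figure D3:**
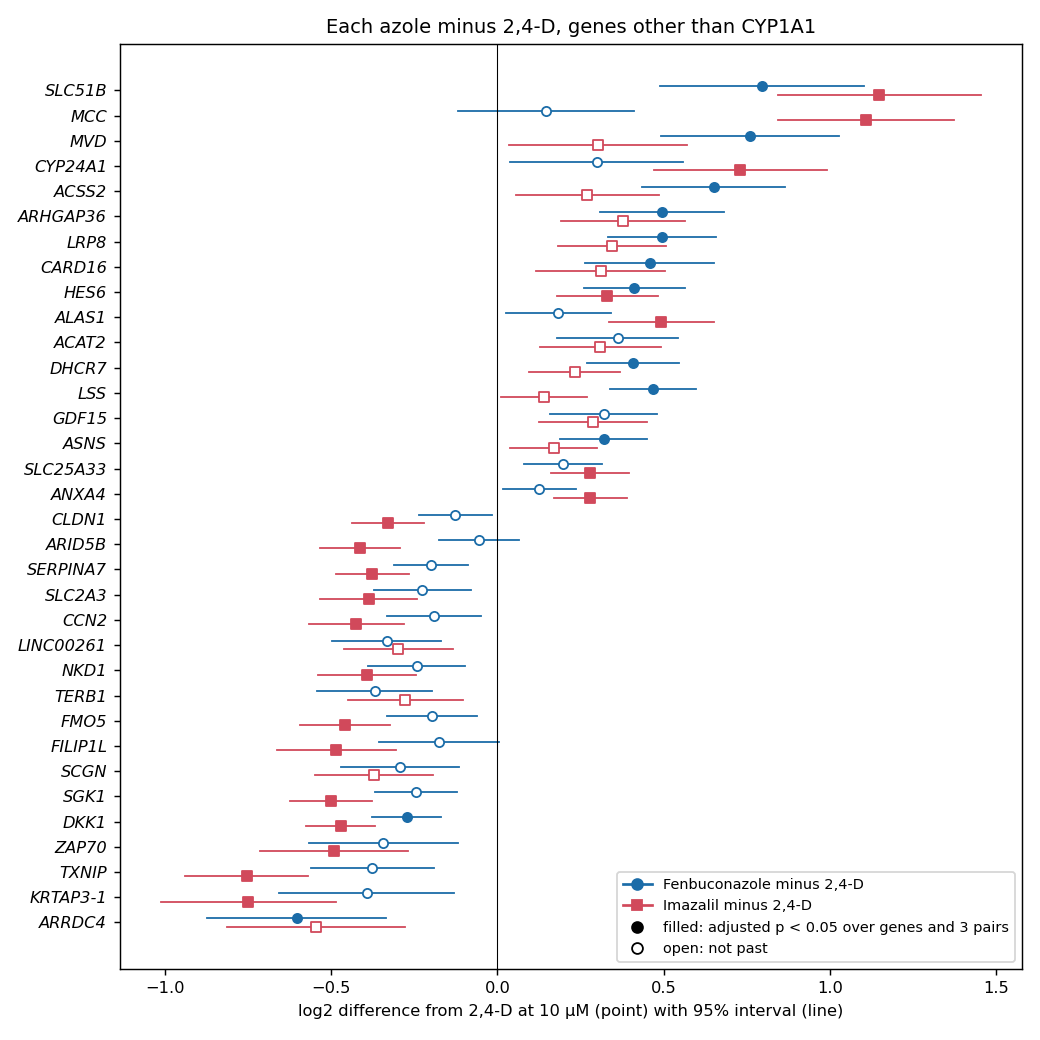
Difference of each azole from 2,4-D at 10 µM (x axis, log2, point) with its 95% interval (line) for the 35 genes with CYP1A1 left out, circles for fenbuconazole and squares for imazalil, filled where the adjusted p over genes and 3 pairs was under 0.05. SLC51B, HES6 and DKK1 are filled for both azoles, and the intervals of MCC and ARID5B hold 0 for fenbuconazole.

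Against DMSO within its own set, fenbuconazole at 10 µM changed 3 genes (0.0152%), imazalil 21 (0.106%) and 2,4-D none (0%), with 938, 1180 and 783 genes at an unadjusted p under 0.05 in limma. The counts were 0 and 2 for fenbuconazole and imazalil when only the groups compared were fitted, and 10 and 36 with a variance trend and robust fit. With 2,4-D the count stayed at 0 in every alternative tried for this contrast. CYP1A1 was the only gene past in both azoles, at 1.65 (adjusted p = 0.000549) and 3.01 (adjusted p = 2.07e-09), and these contrasts share the 3 DMSO arrays. ARRDC4 (-0.71, adjusted p = 0.000549) and ACSS2 (0.56, adjusted p = 0.0201) were the other genes past with fenbuconazole. With imazalil, 12 of the 35 genes beside CYP1A1 passed, TXNIP at -0.85 (adjusted p = 1.19e-05) and DKK1 at -0.51 (adjusted p = 8.23e-05) among them.

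A comparison that shares no array between the compounds sets each compound at 10 µM against the 9 arrays of its own 3 lowest doses, 0.001, 0.003 and 0.01 µM. By this measure fenbuconazole changed 12 genes (0.0607%), imazalil 45 (0.228%) and 2,4-D none (0%, with 856 at an unadjusted p under 0.05 in limma, and 2 past with a variance trend and robust fit). Of all genes, 3 (0.0152%) passed with both azoles in the same direction, which is 25% of the fenbuconazole calls and 6.67% of the imazalil calls. CYP1A1 rose by 1.61 with fenbuconazole (adjusted p = 2.95e-05) and by 2.83 with imazalil (adjusted p = 8.39e-11), and the value with 2,4-D was 0.14. DKK1 changed by -0.26 (adjusted p = 0.0337) and -0.46 (adjusted p = 6.38e-06), beside -0.01 with 2,4-D. TXNIP changed by -0.55 (adjusted p = 0.00113) and -0.75 (adjusted p = 1.84e-06), beside -0.02 with 2,4-D. In these 3 genes the 2,4-D value was within 0.15 of its lowest doses.

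Past with fenbuconazole alone were ARRDC4, LRP8, LSS, HMGCS1, MVD, ACSS2, LPIN1 and a pair of genes outside the naming rule, C8B (-0.43) and AKR1B10 (0.29). For ARRDC4 the values were -0.52 with fenbuconazole (adjusted p = 0.00118) and -0.40 with imazalil (adjusted p = 0.293). For SLC51B they were 0.38 (adjusted p = 0.214), 0.80 (adjusted p = 0.00264) and, with 2,4-D, -0.47 (adjusted p = 0.815). HES6 did not pass by this measure, at 0.22, 0.16 and -0.22 with fenbuconazole, imazalil and 2,4-D. Leaving out all arrays of replicate 1, 2 or 3 lowered the count shared by both azoles to between 1 and 2, and those of fenbuconazole and imazalil to between 1 and 6 and between 6 and 16. With the replicate number as a block the shared count was 5.

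**Figure D4:**
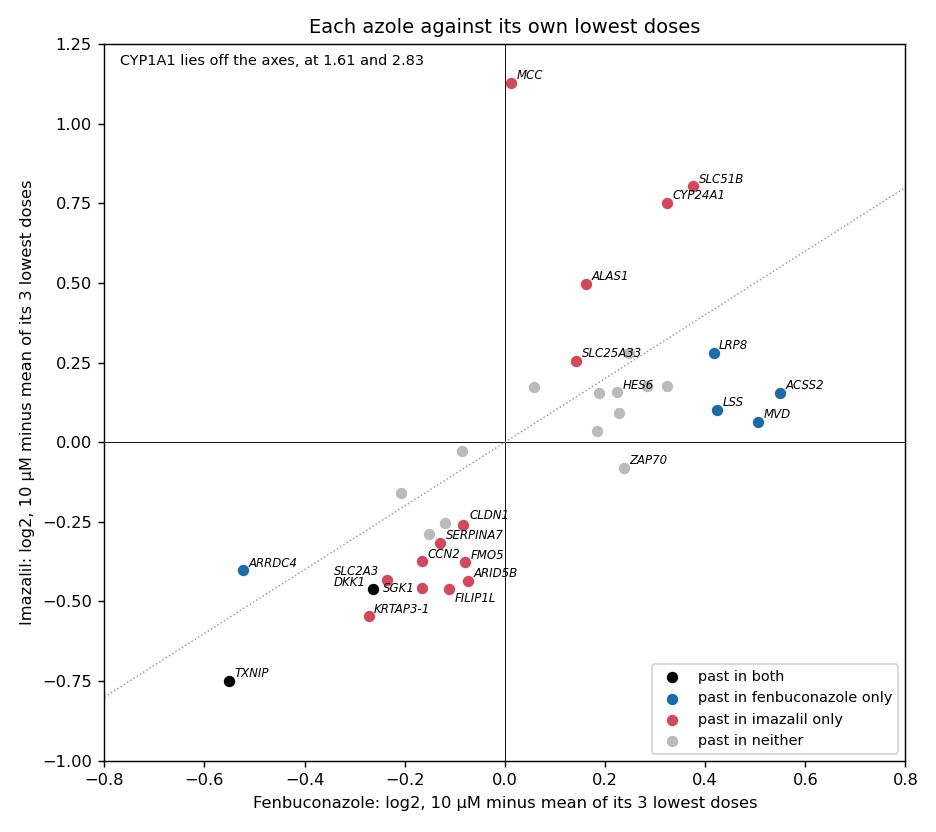
Log2 difference of 10 µM from the mean of the same compound's 3 lowest doses, fenbuconazole on the x axis and imazalil on the y axis, for the 35 genes, with CYP1A1 off the axes and a dotted line where both are equal. TXNIP and DKK1 (black) passed with both azoles, the sterol genes lie to the right near the x axis and MCC lies on the y axis, near 0 for fenbuconazole.

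Few genes differed between the azoles and 2,4-D at lower doses. At 3 µM the azole mean differed from 2,4-D for 2 genes (0.0101%), CYP1A1 (1.28 ± 0.17, adjusted p = 2.77e-06) and the noncoding HEATR5A-DT, which was chosen after its values were seen. No gene passed at 1 µM or at any of the 6 doses below, where 725 to 1859 genes had an unadjusted p under 0.05 in limma. With the interquartile range as a covariate, 189 calls were made in sum over the 6 lowest doses. CYP1A1 lay 0.84 ± 0.22 above DMSO with fenbuconazole at 3 µM, 1.93 ± 0.32 with imazalil and 0.10 ± 0.04 with 2,4-D (mean ± SD, n = 3). At 1 µM imazalil gave 1.15 ± 0.20 and passed against 2,4-D on its own, and fenbuconazole gave 0.45 ± 0.41.

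SLC51B, HES6, DKK1 and TXNIP had azole means closer to DMSO at 3 µM than at 10 µM. At 3 µM, DKK1 gave -0.09 ± 0.08 with fenbuconazole, -0.19 ± 0.03 with imazalil and -0.02 ± 0.05 with 2,4-D. TXNIP gave -0.06 ± 0.10, -0.12 ± 0.08 and -0.01 ± 0.09, and HES6 0.21 ± 0.11, 0.08 ± 0.09 and -0.03 ± 0.07. For SLC51B the values were 0.20 ± 0.14, 0.56 ± 0.09 and 0.14 ± 0.14, so that 2,4-D lay below DMSO only at 10 µM among these doses. Of genes past with fenbuconazole alone, ARRDC4 gave 0.06 ± 0.09 with fenbuconazole, -0.31 ± 0.07 with imazalil and 0.02 ± 0.24 with 2,4-D, and MVD was at 0.45 ± 0.05 with fenbuconazole at 3 µM, against 0.11 ± 0.25 with imazalil. None of these passed at 3 µM as azole mean minus 2,4-D.

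The slope on log10 dose over all 9 doses differed between the azole mean and 2,4-D for 3 genes (0.0152%). CYP1A1 rose by 0.44 ± 0.07 more per 10-fold dose with the azoles (adjusted p = 0.00118). SGK1 had a difference of -0.08 ± 0.02 (adjusted p = 0.0146) and NPVF, from a probe set with a mean level of 2.22, one of -0.08 ± 0.02 (adjusted p = 0.0372). TXNIP (-0.11 ± 0.03, adjusted p = 0.505) and DKK1 (-0.06 ± 0.02, adjusted p = 0.626) did not pass. The count was 0, 1 and 2 without replicate 1, 2 and 3, and 6 with the replicate number as a block.

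**Figure D5:**
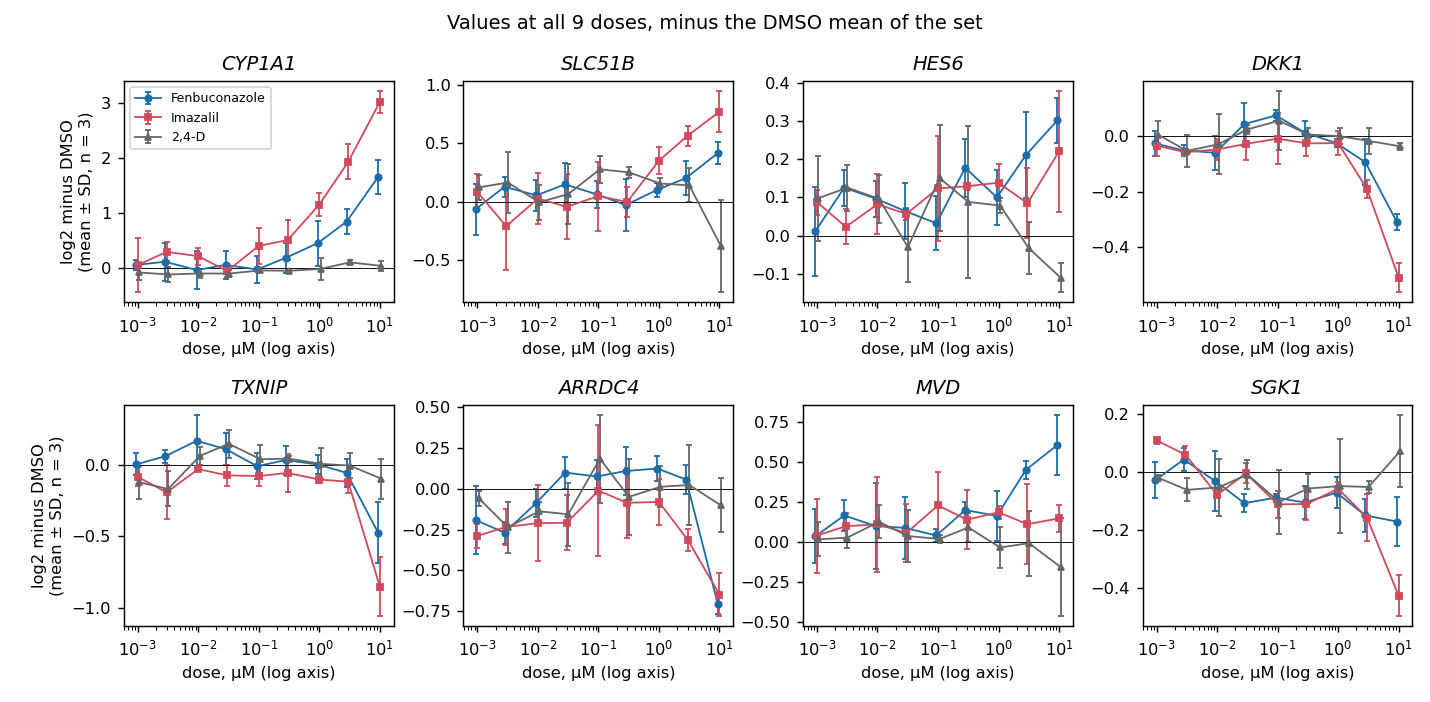
Dose course of 8 genes, as log2 minus the DMSO mean of the set (y axis, mean ± SD of 3 arrays) against dose in µM on a log axis, for fenbuconazole, imazalil and 2,4-D. CYP1A1 departs from 0 at 1 to 3 µM with the azoles, whereas DKK1, TXNIP and ARRDC4 lie lower at 10 µM and SLC51B lies below 0 with 2,4-D at 10 µM.

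No measured member passed in the lists of NRF2 targets (11 genes), PPARA targets (13), p53 targets (11), cell cycle (19), immediate early genes (12), heat shock (9), metallothioneins and zinc (7), or mesenchymal (8) and blood and endothelial markers (9). Their medians ran from -0.06 for mesenchymal markers to 0.08 for PPARA targets. NQO1 was given above, the p53 target and cell cycle inhibitor CDKN1A gave 0.09 (95% interval -0.06 to 0.23), and PDK4, a PPARA-induced kinase of a dim probe set, gave 0.22 (0.03 to 0.41). The cystine transporter gene SLC7A11, on the NRF2 and stress lists, had all 6 azole arrays above the 3 arrays with 2,4-D at a difference of 0.27 (adjusted p = 0.09). Against DMSO it gave 0.06 with fenbuconazole, 0.03 with imazalil and -0.22 with 2,4-D.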

How the data were processed

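Affymetrix HT HG-U133+ PM arrays measured RNA of HepG2 cells. The authors deposited log2 intensities per probe set, obtained by RMA separately for each compound's set of 30 columns (27 treated and copies of the 3 DMSO arrays). The submitters' notes name RMA and Partek, with no version given in the sources used. Copies of a DMSO array correlated at r = 0.999 or higher, different DMSO arrays at 0.9973 or lower. The mean of the set's DMSO columns was subtracted and treated as fixed, and its error is not in the SE of differences between compounds.

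Of 54715 probe sets, 40914 had 1 symbol. The brightest per gene gave 19774 genes. limma 3.58.1 in R 4.3.3 (lmFit, eBayes) fitted 27 group means to 81 treated columns for contrasts between compounds, and group means within each set otherwise. Tests were two-sided with Benjamini-Hochberg adjustment, for pairs over genes and the 3 pairs. Fits were tested on simulated data with independent noise for each treated array. The simulation held no effect of replicate number or interquartile range, so it does not bear on those.

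The members and the 21 lists (271 of 295 entries measured) were chosen with earlier results of these data known. Named genes were up to 15 each way past the threshold for the azole mean with no overlap of arrays, those past in both azoles, up to 6 per list, the steepest slopes and 24 preset genes; other names were added after their values were seen. Promoter windows matched 30 of the 35 genes. Some preset genes were not analysed here.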

Additional observations from a re-analysis of the deposited data

Results flagged for a closer look

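One probe set outside the genes tested, among 13699 with no symbol or several, passed the same contrast in a separate fit. It carries several gene symbols, so no gene is named. Its azole mean minus 2,4-D at 10 µM was -0.33 ± 0.06 (log2, SE, adjusted p = 0.00414 in limma), with fenbuconazole at -0.16 and imazalil at -0.50 against 2,4-D.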

How the results depend on the processing

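CYP1A1 passed for the azole mean against 2,4-D in all 22 alternatives, and SLC51B, DKK1 and TXNIP in all but the fit of the 9 arrays alone. No gene among the 35 changed sign, and over 765 refits of single genes 489 kept their call and the others lost it. The number of genes past was 35 for the azole mean, 20, 36 and 18 for fenbuconazole minus 2,4-D, imazalil minus 2,4-D and fenbuconazole minus imazalil, and 4 for both azoles against 2,4-D. With the interquartile range as a covariate, the azole mean gave 116, the pairs with 2,4-D 44 and 83, and both azoles 13, while 10 µM against the lowest doses gave 22 for fenbuconazole and 5 for both azoles, the doses of 0.3 µM and below 189 in sum, and the slope 9. With dim genes left out, fenbuconazole gave 31 against 2,4-D, 29 against imazalil, 14 against DMSO and 30 against its lowest doses, both azoles gave 8 against 2,4-D, the 3 µM and 1 µM contrasts 1 and 2, and the slope 9. A variance trend with robust fitting gave 10 and 36 for fenbuconazole and imazalil against DMSO, and 21 and 2 for fenbuconazole and 2,4-D against their lowest doses. Joint quantile normalization gave 6 for the slope. The baseline of the 3 lowest doses gave 13 for the azole mean and 10, 18 and 4 for the 3 pairs. No baseline, where offsets between the separately normalized sets enter the difference, gave 2205, then 1228, 1720 and 643, and 443 for both azoles. The 9 arrays alone gave 1, then 1, 2 and 2, and 1 for both azoles. Only the groups compared gave 0 and 2 for fenbuconazole and imazalil against DMSO. Beyond the causes named, the cause was not tested.

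Whether the replicate numbers pair the samples is not settled. The labels give every array a code P1, P2 or P3 equal to its replicate number and do not say what it marks. Deviations of same-numbered arrays correlated at 0.15 to 0.42 between fenbuconazole and 2,4-D, at -0.10 to 0.13 between the azoles and at -0.13 to 0.14 between imazalil and 2,4-D. A replicate block gave 47 for the azole mean, 8 for both azoles against 2,4-D, 5 for both against their lowest doses, 2 at 1 µM and 6 for the slope. Fits leaving out 1 array or 1 replicate number gave 7 to 32 for the azole mean, 5 to 30, 11 to 47 and 3 to 47 for the 3 pairs and 1 to 6 for both azoles. Without 1 replicate number, fenbuconazole, imazalil and 2,4-D against DMSO gave 0 to 1, 2 to 4 and 0, and against the lowest doses 1 to 6, 6 to 16 and 0, with 1 to 2 for both azoles. The 3 µM and 1 µM contrasts gave 1 and 0, the lower doses 0 to 6 and the slope 0 to 2.

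Genes that did not pass changed sign as follows. With the median over probe sets, CDKN1A was -0.0081, CYP3A4 -0.098, INSIG1 -0.040 and NQO1 -0.0061. With the lowest-dose baseline, CYP3A7 was -0.035, HMOX1 0.036 and TIPARP -0.023. With no baseline, CDKN1A was -0.015, CYP1A2 -0.084, CYP1B1 -0.054, CYP3A4 -0.30 and TIPARP -0.13. Without 1 array or replicate number, AHRR, CYP2B6 and HMOX1 reached 0.045, 0.025 and 0.031 and CYP3A4 -0.0035, from -0.052, -0.3, -0.092 and 0.12 at the other end. With 3 arrays a group, small changes of dim genes could not be measured.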

Other observations

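Some genes differed between a single azole and 2,4-D at 10 µM and were not past for the azole mean. They were chosen after their values were seen. With fenbuconazole these included HSD17B7, a sterol synthesis enzyme (0.39 ± 0.08, adjusted p = 0.018), PNPLA3, a lipase of lipid droplets (0.58 ± 0.12, adjusted p = 0.0183), and PRKACB, a catalytic subunit of protein kinase A, which was lower (-0.40 ± 0.09, adjusted p = 0.025). Imazalil gave 0.11, 0.11 and -0.13 for these genes. With imazalil they included IL6R, the interleukin-6 receptor (0.62 ± 0.14, adjusted p = 0.025), BNIP3L, a mitophagy receptor (-0.53 ± 0.10, adjusted p = 0.00462), and the transcription factor gene FOXQ1 (-0.24 ± 0.05, adjusted p = 0.0311). Fenbuconazole gave 0.10, -0.12 and -0.06 for these genes.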
